A study of Mus musculus with 8 samples.

Results

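Growth plate cartilage from the femurs of 4 control mice was profiled on 4 single-colour arrays, and their common transcriptome is described here without any comparison of genotypes. These arrays, named Cre 1 to Cre 4, make up 4 of the 8 arrays of the series. The animals carried the genotype Cre, were 12 days old, and were littermates of CreTW mice whose arrays were not used here. Each array received Cy3-labelled material made from 100 ng of total RNA. The labels name neither the promoter that drives Cre nor the strain; as background, the mouse model was built with a Cre expressed from the Col2a1 promoter in chondrocytes, and the CreTW mice in addition expressed a mutant form of Twinkle, the helicase of mitochondrial DNA. The control tissue therefore carried Cre itself, and no array of Cre-free cartilage was analysed here.

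Of 22911 genes with a symbol on the array, 13029 had at least 1 probe well above background on all 4 arrays, and these genes form the transcriptome that follows. A gene was read from its brightest such probe. Its level is given as log2 of the processed signal minus the 75th percentile of that array, so that 0 is the signal that 75% of probes do not exceed and each unit is a 2-fold step. A percentile gives a gene's place by mean level among the 13029. Probes differ in how strongly they bind: among the 4221 genes with 2 or more usable probes, the median gap between the brightest 2 probes of 1 gene was 1.80 log2 units. The order of genes is therefore an order of probe signals, and the text says where every usable probe of one gene lay above every usable probe of the next. Each array held 1 animal, so that differences between animals, dissections and hybridisations cannot be told apart. In a bulk sample, fewer cells of a type and less RNA per cell cannot be told apart either.

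The growth plate is the cartilage that lengthens a bone. Its chondrocytes rest, divide in columns and then swell, and they lay down a matrix of type II collagen and aggrecan under the control of the SOX factors. The swollen, hypertrophic cells make type X collagen and the signal Indian hedgehog before vessels, osteoclasts and osteoblasts replace them with bone and marrow at the chondro-osseous border. A dissected growth plate can thus hold bone, marrow, perichondrium and adherent muscle.

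Promoters of 6 genes on which the description turns are shown for the aggrecan, type X collagen and hedgehog genes that mark cartilage and for 3 of the genes that varied most between the arrays. Each is the stretch of 250 bases before the transcription start from RefSeq on build GRCm38.p6, on the gene's own strand. Capitals mark matches, on either strand, to TATAAA (the TATA box), GAGGAAGT (a core for the myeloid factor PU.1) and CAGCTG (an E-box, bound by muscle and other basic helix-loop-helix factors). Genes and motifs were chosen after the sequences and the levels had been seen.
Acan, chr7:79052976-79053225, plus strand: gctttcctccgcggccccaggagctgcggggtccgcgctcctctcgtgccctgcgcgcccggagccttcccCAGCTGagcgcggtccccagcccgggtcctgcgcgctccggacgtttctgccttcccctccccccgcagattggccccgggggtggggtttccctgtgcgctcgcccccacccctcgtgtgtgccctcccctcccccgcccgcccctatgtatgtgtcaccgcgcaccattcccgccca
Col10a1, chr10:34389731-34389980, plus strand: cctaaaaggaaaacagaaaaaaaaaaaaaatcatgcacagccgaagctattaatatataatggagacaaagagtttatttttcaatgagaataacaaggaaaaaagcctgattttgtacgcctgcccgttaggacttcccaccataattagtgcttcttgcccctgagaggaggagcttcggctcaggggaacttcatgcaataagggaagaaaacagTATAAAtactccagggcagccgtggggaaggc
Ihh, chr1:74951673-74951922, minus strand: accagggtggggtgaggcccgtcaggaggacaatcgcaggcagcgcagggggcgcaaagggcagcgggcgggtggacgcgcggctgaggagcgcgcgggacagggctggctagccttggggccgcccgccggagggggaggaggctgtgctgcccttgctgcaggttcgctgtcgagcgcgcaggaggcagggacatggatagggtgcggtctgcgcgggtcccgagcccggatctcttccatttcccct
Mpo, chr11:87793534-87793783, plus strand: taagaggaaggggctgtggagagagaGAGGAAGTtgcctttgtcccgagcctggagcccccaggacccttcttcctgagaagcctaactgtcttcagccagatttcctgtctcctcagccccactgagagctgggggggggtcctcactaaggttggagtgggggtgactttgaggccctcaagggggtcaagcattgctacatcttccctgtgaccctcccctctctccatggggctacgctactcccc
S100a8, chr3:90668821-90669070, plus strand: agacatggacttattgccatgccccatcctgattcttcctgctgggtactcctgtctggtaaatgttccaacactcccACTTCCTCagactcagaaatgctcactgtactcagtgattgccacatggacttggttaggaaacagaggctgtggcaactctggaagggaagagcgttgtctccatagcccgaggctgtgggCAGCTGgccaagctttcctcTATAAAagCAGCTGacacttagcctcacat
Myl1, chr1:66945057-66945306, minus strand: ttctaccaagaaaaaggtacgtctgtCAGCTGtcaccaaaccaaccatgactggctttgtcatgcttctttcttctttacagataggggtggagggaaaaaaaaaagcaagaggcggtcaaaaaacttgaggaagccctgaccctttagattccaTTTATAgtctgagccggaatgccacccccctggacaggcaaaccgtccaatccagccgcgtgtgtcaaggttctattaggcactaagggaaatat
The Col10a1 promoter held a TATA box at -32 to -27 from the start, and the S100a8 promoter held one at -30 to -25. Mpo had the PU.1 core at -224 to -217, and S100a8 had it on the opposite strand at -172 to -165. E-boxes lay at -179 to -174 in Acan, at -224 to -219 in Myl1 and at -50 to -45 and -22 to -17 in S100a8. The Myl1 promoter also held TATAAA on the opposite strand at -95 to -90, and none of the 3 motifs was in the Ihh window. No match overlapped another. Among 32851 promoters of the same length, 12.4% held TATAAA, 2.44% held GAGGAAGT and 13.0% held CAGCTG. GAGGAAGT was in 6 of the 16 neutrophil marker promoters in the table (Elane, Ly6g, Mmp8, Mpo, Prtn3 and S100a8), and CAGCTG was in 12 of 30 muscle marker promoters. These matches describe the letters in these windows, not sites of binding.

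The 4 arrays measured between 26912 and 32166 probes well above background, of 56605, and no spot was saturated. The shares were 47.5%, 52.0%, 56.8% and 49.9% on Cre 1 to Cre 4, highest on Cre 3. Across genes, which are not independent replicates, Pearson's r between 2 arrays was 0.992 for each pair among Cre 1, Cre 2 and Cre 3 and between 0.982 and 0.986 for the pairs with Cre 4. The median gene had an SD of 0.16 over the 4 arrays and a range of 1.27-fold from its lowest to its highest array. Spots of the same probe within an array differed by less, with a median SD of 0.04 over 291 probes printed 10 times, against 0.13 for the same probes between arrays. A range of at least 2-fold was found in 880 of 13029 genes (6.75%), and one of at least 4-fold in 59 (0.453%). Dim genes varied more: 13.4% of the dimmest 25% of genes and 3.35% of the brightest 25% had a 2-fold range.

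The cartilage markers stood near the top of the signal order on every array. Col2a1, the chain of type II collagen, measured 9.68, 9.97, 9.77 and 10.18 on Cre 1 to Cre 4, and its mean of 9.90 ± 0.22 (SD, n = 4) ranked 11 of 13029. Acan, the aggrecan core protein, measured 8.47, 8.80, 8.57 and 9.10, at percentile 99.7. Col10a1, the collagen of hypertrophic cells, measured 7.75, 7.99, 7.66 and 8.28, at percentile 99.1. All 3 were highest on Cre 4, and the labelled tissue thus carried its defining markers. Ihh, the hedgehog ligand of prehypertrophic cells, measured 4.14, 5.10, 4.38 and 6.02, at percentile 94.1. Sox9, the master factor of chondrocytes, measured 3.82, 4.35, 4.09 and 4.97, at percentile 91.0. Its other usable probe read 1.15, 1.43, 1.39 and 2.04, so that the place of Sox9 in the order rests on the probe chosen, while both probes were lowest on Cre 1 and highest on Cre 4. Ihh and Sox9 both ranged over 2-fold or more.

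**Figure D1:**
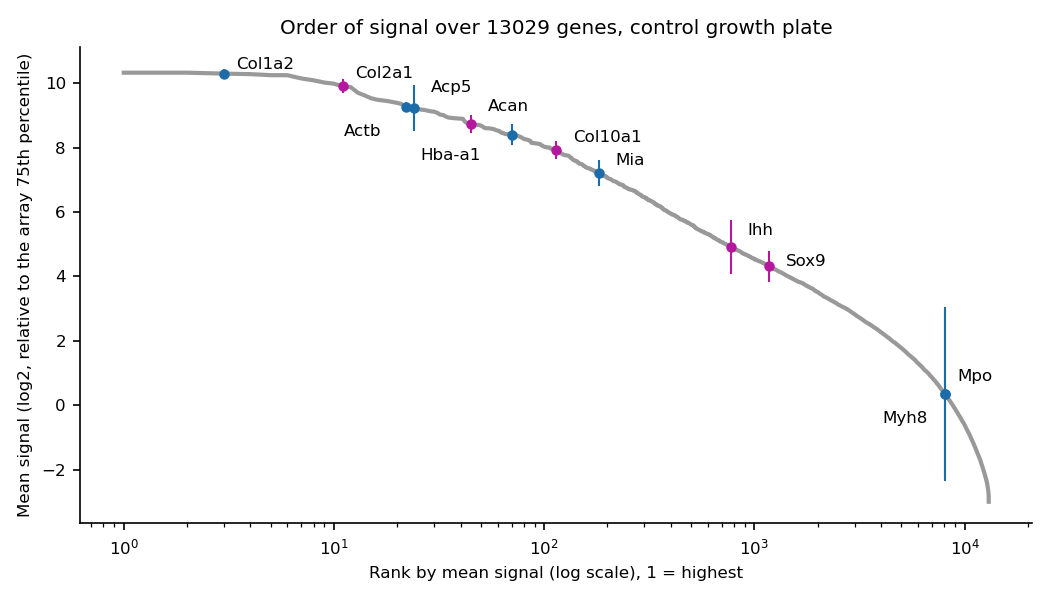
Mean level of each of the 13029 genes in order of rank (grey line), with the vertical axis in log2 units relative to the array's 75th percentile and the rank on a log axis. Points are named genes with 1 SD over the 4 arrays as bars, in magenta for the 5 markers of cartilage; Col2a1 at rank 11 stands between Col1a2 and Acp5 among the 25 highest signals.

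The 25 highest signals mixed matrix and bone genes with ribosomal RNA and with genes of no known role in cartilage. Rn28s1, the 28S ribosomal RNA, led with 10.53, 10.46, 10.05 and 10.25. Col1a2, a chain of the type I collagen of bone and fibrous tissue, followed at rank 3 with 10.43, 10.41, 10.10 and 10.24. Sparc, the collagen-binding protein osteonectin, measured 10.22, 10.24, 9.88 and 10.004. These 3 were lowest on Cre 3, whereas Col2a1 was lowest on Cre 1. Acp5, the osteoclast phosphatase TRAP, measured 9.52, 9.70, 9.49 and 8.16 and had the largest spread of the 25. Actb and the ribosomal protein gene Rpl41 were also among them.

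Many of the remaining high signals rested on 1 probe that other probes of the gene did not share. Of the 25 genes, 13 had another probe, and in 10 of these every other probe lay at least 5 log2 units lower. Slc10a1, a bile acid transporter, read 10.28 ± 0.16 (SD, n = 4) by its brightest probe and -5.44 by the other. Elk1, a transcription factor, read 10.24 ± 0.14 and -2.07, and Med16, a Mediator subunit, read 9.46 ± 0.19 and -2.41. Such a gene's place describes a probe, not an amount of messenger RNA. Of the 24 genes after Rn28s1, 11 (45.8%) had a profile over the 4 arrays within 0.1 log2 units of that of the 28S RNA at each array, against 102 of 13029 genes (0.783%). The 11 included Col1a2 and Sparc as well as Med16, but neither Slc10a1 nor Elk1; whether rRNA contributed to these signals was not tested.

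The cartilage collagens were led by Col2a1, each of whose usable probes lay above every probe of Col11a1, the next in order. Col11a1, a chain of the minor fibril collagen XI, measured 7.64, 8.10, 7.69 and 8.47. Col9a2, of the fibril-surface collagen IX, measured 7.44, 8.07, 7.76 and 8.54, and Col9a1 had 7.23, 7.66, 7.47 and 8.19. The neighbours Col11a1 and Col9a2 differed by less than their spread, and Col9a2 was above Col11a1 on Cre 3 and Cre 4. Col11a2 (mean 5.94 ± 0.39) and Col9a3 (5.61 ± 0.47) came lower, and Col27a1, a collagen of the maturing growth plate, was the lowest at 3.59 ± 0.42 (SD, n = 4 each). All 7 genes were lowest on Cre 1 and highest on Cre 4, against 20.2% and 38.8% of all genes. After subtracting each gene's own mean, the mean of the 7 is the score of the list. It was -0.44, 0.07, -0.12 and 0.49 on the 4 arrays. Its extreme arrays were the same under each of 8 other ways of processing the arrays. Several could hardly alter it: all 7 genes passed every filter, keeping outlier spots left -0.44 on Cre 1, and the authors' value table held nearly the same values. Median scaling, quantile normalization, normexp correction and the mean of probes gave -0.41, -0.44, -0.43 and -0.40 on Cre 1. The same settings gave 0.50, 0.39, 0.39 and 0.47 on Cre 4. Col9a2, Col9a3 and Col27a1 reached a 2-fold range (3 of 7, against 6.75% of all genes). None of the 7 did without Cre 1, without Cre 4, after quantile normalization or after normexp background correction with it.

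Among proteoglycans and link proteins, Acan and Snorc, a small membrane proteoglycan of chondrocytes, stood first. Snorc measured 8.15, 8.67, 8.42 and 9.14, and every probe of Acan was above it in mean although Snorc was higher on Cre 4. Hapln1, which links aggrecan to hyaluronan, measured 5.68, 6.30, 5.67 and 6.85 and had a 2-fold range. Hspg2, the perlecan of the pericellular matrix, had a mean of 5.997 ± 0.33 and Cspg4 one of 5.44 ± 0.38 (SD, n = 4). Prg4, the lubricin of the joint surface, measured 5.28, 4.18, 4.13 and 5.10. It was high on Cre 1 and Cre 4 and low on Cre 2 and Cre 3, another pattern than that of Acan. Vcan, the versican of non-cartilage matrix, was far down at 1.01 ± 0.17.

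Comp, the pentameric matrix protein mutated in pseudoachondroplasia, led the matrilins and thrombospondins with 8.39, 8.75, 8.47 and 9.25, and its probes lay above every probe of Thbs3. Matn1, the cartilage matrix protein, measured 5.74, 6.16, 5.93 and 6.59, and Matn3, a growth plate matrilin, measured 3.04, 3.87, 3.53 and 4.31. Both were lowest on Cre 1 and highest on Cre 4. Thbs4, a thrombospondin of tendon and muscle, went another way with 2.36, 1.05, 1.36 and 2.30. Of the 9 genes, 8 were highest on Cre 4, against 38.8% of all genes. A 2-fold range was found in 2 of the 9, against 6.75% of all genes.

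All 12 small leucine-rich proteoglycans that were kept of 14 on the array were highest on Cre 4, against 38.8% of all genes. Dcn, decorin, a regulator of collagen fibrils, measured 7.14, 6.70, 6.77 and 7.17, and it was first in mean. Chadl, chondroadherin-like, measured 5.98, 6.72, 6.40 and 7.08 and was above Dcn on Cre 2. Prelp measured 5.76, 6.51, 5.95 and 6.76, and Epyc, the epiphycan of growth plate cartilage, measured 2.91, 3.76, 3.26 and 4.17. These 3 were lowest on Cre 1. Kera, a tendon member, measured 1.62, 0.16, 0.70 and 1.92 and was lowest on Cre 2, as was Dcn. The second array had the lowest value in 8 of the 12, against 18.9% of all genes. Lum (5.89 ± 0.17), Fmod (5.79 ± 0.27) and Bgn (3.42 ± 0.29) varied by less than 2-fold.

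The small secreted cartilage proteins were led by Mia, the cartilage-derived retinoic acid-sensitive protein, with 6.82, 7.30, 6.99 and 7.73. Ucma of the upper growth plate measured 6.45, 6.68, 6.43 and 7.09, and Cnmd, the antiangiogenic chondromodulin, measured 5.91, 6.502, 6.21 and 6.92. All 3 were highest on Cre 4. Cytl1, at 2.29, 1.09, 1.99 and 2.25, and Cilp2, at 4.09, 2.77, 2.92 and 3.92, were instead high on Cre 1 and lowest on Cre 2. Of the 8 kept genes, 4 had a 2-fold range, against 6.75% of all genes.

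**Figure D2:**
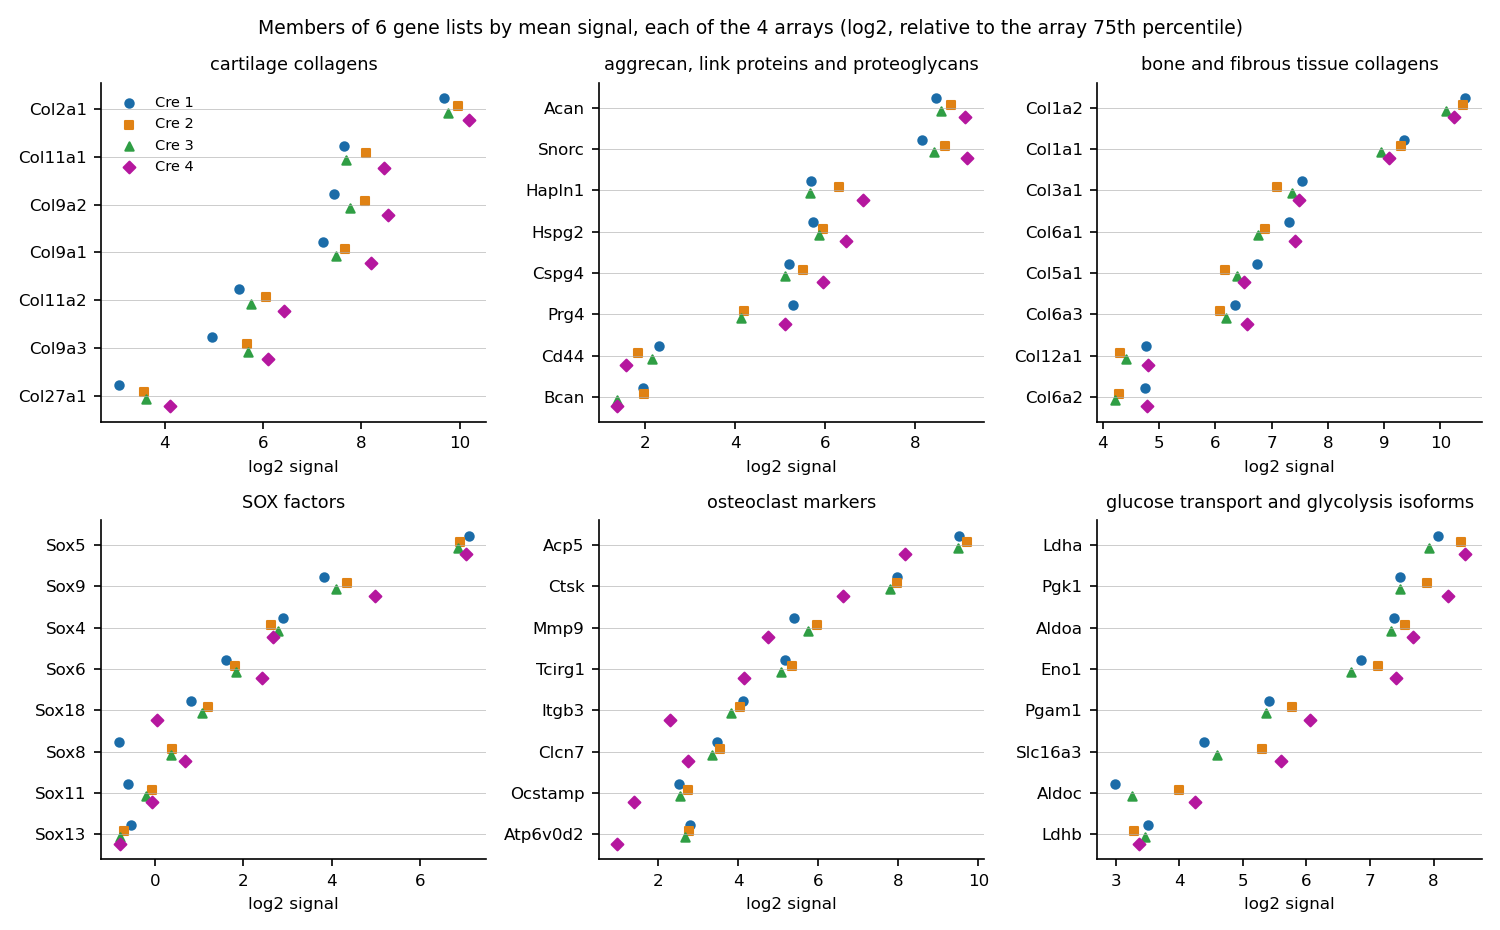
Levels on each of the 4 arrays of the leading members of 6 gene lists, ordered by mean, in log2 units relative to the array's 75th percentile. Cre 4 (diamonds) is the highest array for every cartilage collagen shown and the lowest for every osteoclast gene shown.

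Hypertrophic genes were all well above background, and they did not share 1 pattern over the arrays. Col10a1 came first, and its probes lay above every probe of Cdkn1c, the p57 inhibitor of the cell cycle, which had 6.97, 7.17, 7.17 and 7.91. Panx3, a channel protein of prehypertrophic cells and osteoblasts, measured 3.40, 3.81, 3.46 and 4.36. These were highest on Cre 4. Spp1, osteopontin, measured 7.65, 7.24, 7.44 and 6.46. Mmp13, the collagenase of late hypertrophic cells and osteoblasts, measured 5.66, 5.68, 5.73 and 4.57. Ibsp, bone sialoprotein, measured 5.26, 4.997, 5.34 and 3.78. Spp1, Mmp13 and Ibsp had a 2-fold range and their lowest value on Cre 4, where 4 of the 19 genes of the list were lowest, against 27% of all genes. Runx2, the factor that drives hypertrophy and bone formation, stayed at 1.096, 1.18, 0.95 and 1.09, and Alpl, the alkaline phosphatase of mineralization, was at 4.95 ± 0.15 (SD, n = 4). The list score ran from -0.09 on Cre 3 to 0.10 on Cre 4, and its highest and its lowest array each changed in 2 of 8 other settings.

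Genes of the joint surface and resting zone were led by Clu, clusterin, at 5.44 ± 0.24. Sfrp5, a secreted Wnt inhibitor, measured 3.13, 4.38, 4.25 and 4.67, and Gdf5, the signal of the joint interzone, measured 2.93, 2.03, 2.14 and 3.05. Sfrp5 was low on Cre 1, where Gdf5 and Prg4 were high. Pthlh, the PTHrP made by resting cells, was dim at -1.58, -1.89, -0.96 and -0.65. In this list 6 of 13 genes had a 2-fold range, against 6.75% of all genes.

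Sulfation and glycosaminoglycan synthesis was led by Papss2, which makes the sulfate donor, with 5.72, 6.18, 5.63 and 6.70. Chsy1, a chondroitin synthase, stood at 4.48 ± 0.29 and Ugdh, the source of glucuronate, at 4.13 ± 0.30. Slc26a2, the sulfate transporter mutated in diastrophic dysplasia, was at 0.30 ± 0.31 by its brightest probe (SD, n = 4 each). Of 25 genes, 19 were highest on Cre 4 and 14 lowest on Cre 3, against 38.8% and 33.9% of all genes. A 2-fold range was found in 4 of the 25, against 6.75% of all genes. The collagen-processing enzymes were led by Pcolce, the enhancer of procollagen cleavage, at 7.81 ± 0.21, and by Serpinh1, the collagen chaperone HSP47, at 7.15 ± 0.21. Of these 24 genes, 18 were highest on Cre 4, against 38.8% of all genes. Plod2, a lysyl hydroxylase, measured 3.27, 4.06, 3.79 and 4.31 and Pcolce2 measured 4.52, 4.84, 4.41 and 5.45. Both were among the 4 of 24 that had a 2-fold range, against 6.75% of all genes.

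Of the matrix metalloproteinases and their inhibitors, Timp2 and Timp1 gave the highest signals. The inhibitor Timp2 measured 7.67, 7.16, 7.31 and 7.54, and Timp1 had a mean of 5.95 ± 0.13, although their probes overlapped in order. Mmp9, the gelatinase of osteoclasts, measured 5.39, 5.96, 5.74 and 4.75, and Mmp2 of fibroblasts and perichondrium measured 4.84, 4.46, 4.59 and 4.91. Mmp9 was lowest on Cre 4, as Mmp13 was, and Mmp2 was highest there.

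Among SOX factors, Sox5 gave the highest signal with 7.10, 6.90, 6.87 and 7.05, and Sox6, its partner in activating cartilage genes, measured 1.62, 1.82, 1.83 and 2.42. Not every probe of Sox5 lay above every probe of Sox9, so the order of the 3 is one of probes. Sox5 varied little, at an SD of 0.11, while Sox9 and Sox6 were highest on Cre 4. Other factors of the chondrocyte included Shox2 at 4.32 ± 0.20 and Trps1 at 4.17 ± 0.31. Foxa2, a factor of hypertrophic cells, measured 0.48, 0.55, 0.21 and 1.72 and Foxa3 measured -1.54, -0.83, -1.33 and -0.10, both highest on Cre 4 with a 2-fold range. Of the 20 genes of this list, 12 were highest on Cre 4 and 12 lowest on Cre 3, against 38.8% and 33.9% of all genes.

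In the hedgehog and PTHrP loop, the receptor gave a higher signal than the ligands. Pth1r, the PTHrP receptor of prehypertrophic cells, measured 6.92, 7.04, 6.71 and 7.48, and its probes lay above those of Ihh. The hedgehog transducer Smo was at 4.50 ± 0.16. The targets Gli1 and Ptch1 measured 3.71, 3.89, 3.96 and 4.25, and 0.78, 1.07, 0.90 and 1.51. Both targets were lowest on Cre 1 and highest on Cre 4, as Ihh was. Ihh had the wider range, and with Dhh and Pthlh it made up the 3 of 10 genes with a 2-fold range. The share of all genes was 6.75%.

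Fgfr3, the receptor that restrains growth plate proliferation, was the brightest of the FGF list with 5.56, 6.16, 5.81 and 6.67, and Fgfr1 was steady at 5.41, 5.50, 5.42 and 5.50. Not every Fgfr3 probe lay above every Fgfr1 probe. Fgf18, a ligand of Fgfr3 made in perichondrium, was far lower in signal at 0.35 ± 0.38. In the IGF axis Igfbp7 led at 6.95 ± 0.20, followed by the ligand Igf2 at 5.92, 5.62, 5.74 and 6.18. Igf1 measured 2.73, 1.96, 2.31 and 2.17, and the receptor Igf1r measured 1.57, 1.60, 1.53 and 2.14. The IGF list was lowest on Cre 2 in 8 of 11 genes, against 18.9% of all genes. Igfbp2 was its 1 gene of 11 with a 2-fold range, against 6.75% of all genes.

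Tgfb3 was the brightest TGF-beta and BMP gene at 4.22 ± 0.23, and the antagonist Nog ranged widely with 1.45, -0.37, 1.37 and 1.09. Bmp6, a ligand of hypertrophic cells, measured 0.04, 0.04, 0.34 and 1.22, and Chrdl1, a BMP antagonist, measured 1.47, 1.83, 1.33 and 2.77. Both were highest on Cre 4, and Nog was low on Cre 2 alone. In the Wnt list Wif1 (4.21 ± 0.37), Wnt5b (4.11 ± 0.48) and Sfrp5 (4.10 ± 0.67) had means within their spread. Wnt5b, a ligand of prehypertrophic chondrocytes, measured 3.68, 4.25, 3.79 and 4.73. Dkk1, a Wnt antagonist of bone, measured -1.004, -1.36, -1.18 and -2.86 and was low on Cre 4. Npr2, the receptor for C-type natriuretic peptide that promotes growth, was steady at 2.50, 2.59, 2.56 and 2.77, and its kinase Prkg2 measured 1.79, 2.03, 1.54 and 2.70. Of the 7 genes of that axis, 5 had a 2-fold range, against 6.75% of all genes. Its dim members Npr3 and Nppc were among the 5.

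Of 182 cartilage genes on the array, each counted once, 164 were kept. Of these, 108 had their highest value on Cre 4, against 38.8% of all genes, and 41 (25%) had a 2-fold range, against 6.75% of all genes. The score was highest on Cre 4 in each of 8 other settings for the collagens, the matrilin and COMP list and the leucine-rich proteoglycans. The same held for the small secreted proteins and the sulfation and collagen-processing lists, and in 7 of 8 settings for the aggrecan list. Of the 8, taking the authors' value table and keeping outlier spots could hardly alter a score. The looser filter and no filter could add no gene to lists that were kept whole. These were the collagens (7 of 7), the matrilin and COMP list (9 of 9) and the collagen-processing list (24 of 24). The osteoblast, osteoclast, erythroid, neutrophil, macrophage, B-lineage and endothelial scores were lowest on Cre 4, whereas the score of the bone and fibrous tissue collagens was not. The part of tissue composition in the cartilage values was not tested.

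Of the osteoblast and osteocyte genes, 9 of 15 were lowest on Cre 4, against 27% of all genes. The type I collagen genes Col1a2 and Col1a1 (9.35, 9.31, 8.95 and 9.10) had the highest signals of the osteoblast list, and neither was lowest on Cre 4. They are also made by perichondrium and tendon. Bglap2, an osteocalcin gene, measured 4.79, 5.49, 4.44 and 3.40, while Bglap and Bglap3, near-identical copies whose probes may not be told apart, had 1.74, 2.59, 1.51 and 0.33 and 4.03, 4.56, 3.70 and 2.53. The osteocyte genes Dmp1 and Phex measured 3.23, 3.08, 2.84 and 1.51, and 1.66, 1.66, 1.23 and 0.34. All 5 were highest on Cre 1 or Cre 2 and lowest on Cre 4. Smpd3, a sphingomyelinase that serves mineralization in cartilage as in bone, went against the list with 5.88, 6.21, 5.72 and 6.83. The osteoblast list had 9 of 15 genes with a 2-fold range, against 6.75% of all genes. Without Cre 4 it had 2, against 289 of 13226 genes.

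Osteoclast genes shared 1 pattern. Acp5 led the list and its probes lay above those of Ctsk, cathepsin K, the collagen-digesting protease, which measured 7.96, 7.98, 7.79 and 6.61. Tcirg1, a subunit of the acid pump, measured 5.16, 5.33, 5.08 and 4.15, and Itgb3, the adhesion integrin of osteoclasts, measured 4.12, 4.05, 3.82 and 2.31. The fusion genes Dcstamp and Ocstamp measured 2.43, 2.47, 2.21 and 0.80, and 2.53, 2.74, 2.54 and 1.40. Cre 1, Cre 2 and Cre 3 lay close together for each of these 6 genes, and Cre 4 lay below them. Of the 14 genes 13 were lowest on Cre 4, against 27% of all genes, the exception being the factor Nfatc1 (2.32, 1.86, 1.92 and 2.24). A 2-fold range was found in 12 of the 14, against 6.75% of all genes. Without Cre 4 it was found in 1, against 289 of 13226 genes. The score was 0.28, 0.38, 0.25 and -0.91. Car2, the carbonic anhydrase that osteoclasts share with red cells, differed from the others in being highest on Cre 3, at 0.14, 0.86, 1.53 and -1.17.

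The other collagens of bone and fibrous tissue varied little, and 0 of 12 had a 2-fold range, against 6.75% of all genes. Col3a1 measured 7.54, 7.09, 7.36 and 7.48, Col6a1 measured 7.30, 6.89, 6.76 and 7.42, and Col5a1 measured 6.74, 6.17, 6.39 and 6.52. These genes of fibrous tissue were highest on Cre 1 or Cre 4, and the list did not share the low Cre 4 of the osteoclast genes.

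**Figure D3:**
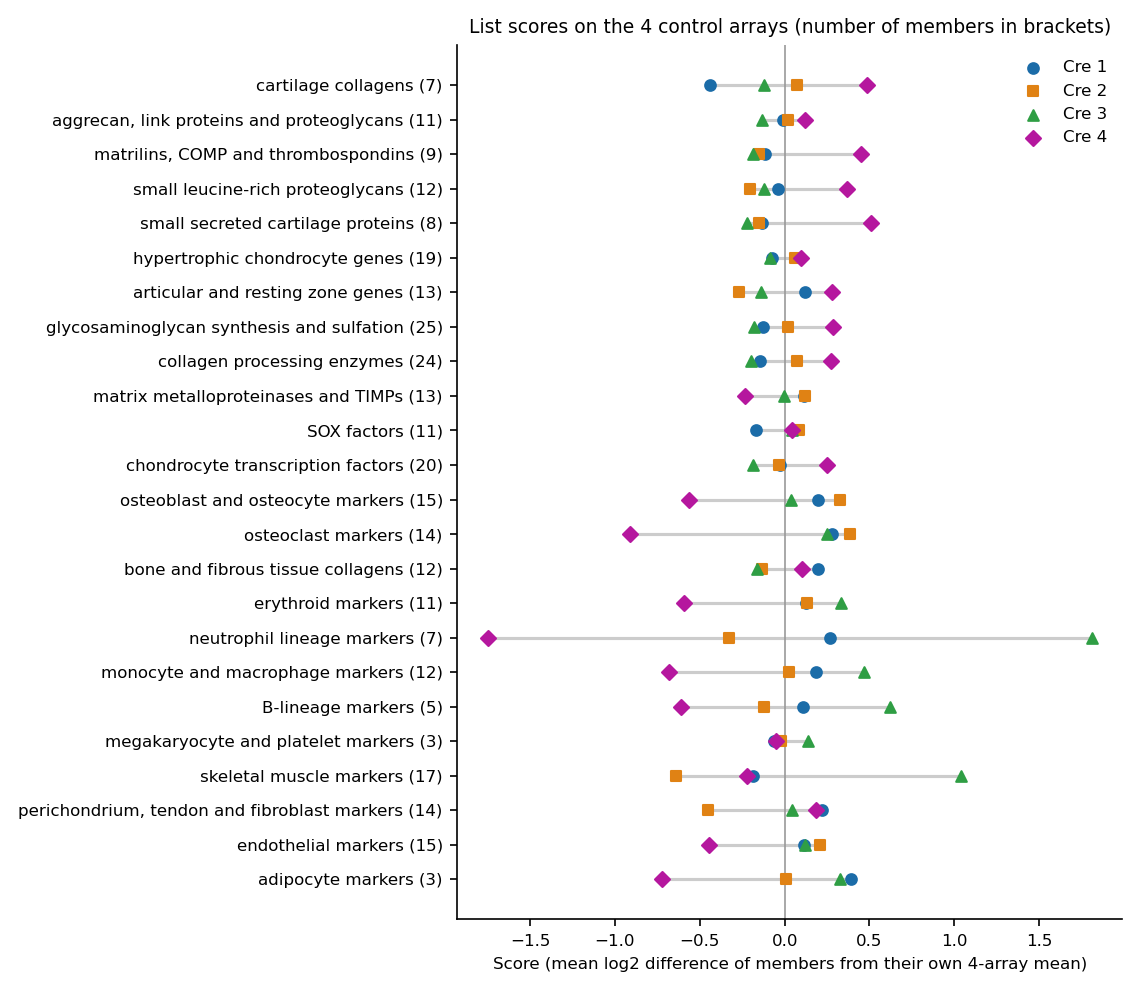
Score of 24 tissue gene lists on Cre 1 to Cre 4, the mean over a list's kept genes of the level minus that gene's mean over the 4 arrays, in log2 units. The grey bars join the lowest and highest arrays; cartilage collagens reach 0.49 and osteoclast markers -0.91 on Cre 4, while neutrophil markers reach 1.81 and muscle markers 1.04 on Cre 3.

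Neutrophil genes varied more between the 4 mice than any other list examined, by the range of its score. Mpo, the myeloperoxidase of granulocyte precursors, measured -0.33, 0.43, 3.90 and -2.61, a 91.3-fold range and the widest among the 13029 genes. S100a9 and S100a8, which together form calprotectin, measured 4.14, 2.75, 5.50 and 0.19, and 2.39, 1.05, 3.74 and -1.17. Camp, a granule antimicrobial peptide, measured 0.22, -1.18, 2.68 and -2.49. All 4 genes were highest on Cre 3 and lowest on Cre 4, and S100a9, S100a8 and Camp were also lower on Cre 2 than on Cre 1. Lcn2, the granule lipocalin, followed the same order with -0.52, -1.49, 0.60 and -2.25. The stefin genes Stfa1, Stfa2, Stfa3 and Cstdc5 had that order too, with Stfa1 at 2.41, 0.94, 3.48 and -1.47; their near-identical sequences may share signal. Csf3r, the receptor for G-CSF, did not take part by its 1 probe. That probe read 8.18, 8.28, 7.85 and 8.16, the highest signal of the list. With no other probe to compare, the value describes a probe, not an amount of messenger RNA. Elane, the neutrophil elastase, measured 0.05, 0.08, 0.63 and 0.15, highest on Cre 3 with a range under 2-fold. Counting every member on the array, 13, 12, 15 and 8 of 16 neutrophil genes were well above background on Cre 1 to Cre 4. Over all probes the shares were 47.5%, 52.0%, 56.8% and 49.9%. The 7 kept genes thus leave out Ltf, Retnlg and others that were not well above background on Cre 4. Of these 7, 5 had a 2-fold range, against 6.75% of all genes. Without Cre 4, more genes passed the filter and 9 had that range, against 289 of 13226 genes.

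Monocyte and macrophage genes shared the low Cre 4 with a smaller excess on Cre 3. Csf1r, the receptor for M-CSF, measured 5.59, 5.61, 5.59 and 4.41, and Cd68, a lysosomal protein of macrophages and osteoclasts, measured 4.10, 4.23, 4.07 and 2.58. For both, Cre 1, Cre 2 and Cre 3 were nearly level. Adgre1, the F4/80 antigen, measured 0.45, 0.22, 0.86 and -0.35, and the complement gene C1qa measured 0.70, 0.68, 1.07 and -0.19. Of 12 genes 11 were lowest on Cre 4, against 27% of all genes. A 2-fold range was found in 10 of the 12, against 6.75% of all genes. Without Cre 3 it was found in 2, against 688 of 13034 genes. Without Cre 4 it was found in 0, against 289 of 13226 genes.

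Erythroid genes were led by globins. Hba-a1 and Hba-a2, alpha globin genes of near-identical sequence, measured 8.81, 8.33, 8.42 and 8.02, and 8.77, 8.25, 8.37 and 7.95. Hbb-bt, a beta globin, measured 6.25, 6.08, 6.33 and 5.56. Globin signal was thus lowest on Cre 4, with a range under 2-fold. The precursor genes spread further: Slc4a1, the band 3 anion exchanger, measured -0.43, 0.64, 1.19 and -1.77, and Alas2, the first enzyme of erythroid haem synthesis, measured 1.62, 1.01, 1.64 and 0.36. Of 20 erythroid genes on the array 11 were kept, and 9 of these were lowest on Cre 4, against 27% of all genes. A 2-fold range was found in 4 of the 11, against 6.75% of all genes.

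Cd79b, a chain of the B cell receptor complex, measured 0.03, -0.51, 0.998 and -1.42, highest on Cre 3 and lowest on Cre 4. Of 12 B-lineage genes, 5 were well above background on Cre 4 and 10 on Cre 3, against 49.9% and 56.8% of all probes. Pf4, platelet factor 4, measured 2.23, 2.02, 3.06 and 1.74, and 6 of 7 megakaryocyte genes were well above background on Cre 3 against 3 on each other array. Over all probes the share was 56.8% on Cre 3 and between 47.5% and 52.0% on the others. Over 38 marrow entries, 26 were highest on Cre 3 and 29 lowest on Cre 4, against 15.6% and 27% of all genes. Of the 38, 23 had a 2-fold range (60.5%), against 6.75% of all genes.

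**Figure D4:**
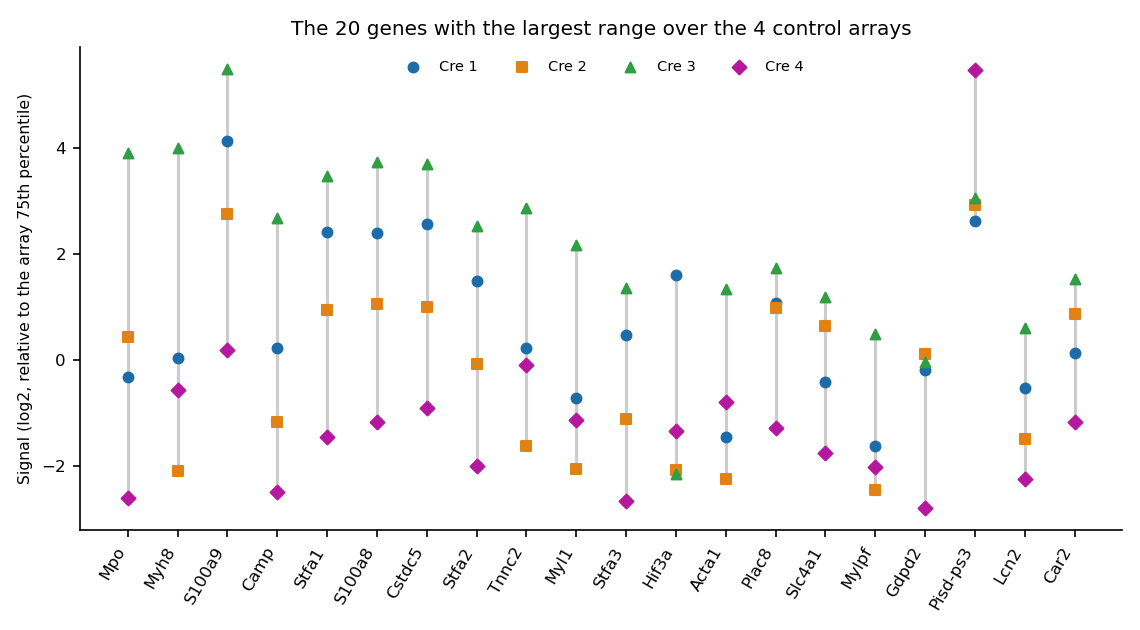
Levels on Cre 1 to Cre 4 of the 20 genes with the largest range over the 4 arrays, in log2 units relative to the array's 75th percentile, with grey lines from the lowest to the highest array. Mpo and Myh8 have the widest ranges, and the neutrophil and muscle genes have their highest point on Cre 3.

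Muscle genes formed a separate pattern, high on Cre 3 and lowest on Cre 2. Myh8, the perinatal myosin heavy chain, measured 0.04, -2.10, 4.0004 and -0.57, a 68.6-fold range. Tnnc2, the fast troponin C, measured 0.23, -1.62, 2.88 and -0.10, and Myl1, a fast myosin light chain, measured -0.72, -2.06, 2.16 and -1.14. Acta1, the skeletal actin, measured -1.45, -2.25, 1.35 and -0.80. All 4 genes ran in the order Cre 3, then Cre 1 and Cre 4, then Cre 2. The brightest gene of the list did not: Tnni2, the fast troponin I, measured 4.48, 5.99, 5.56 and 5.60, low on Cre 1, and Tnnt3 did likewise at 1.82, 2.48, 2.85 and 2.60. Eno3 (2.04 ± 0.17) and Casq1 (-1.86 ± 0.37) varied by less than 2-fold. Of the 17 kept genes 13 were highest on Cre 3 and 11 lowest on Cre 2, against 15.6% and 18.9% of all genes. A 2-fold range was found in 10 of the 17, against 6.75% of all genes. Without Cre 3 it was found in 4, against 688 of 13034 genes. Counting detection alone, 20, 19, 34 and 21 of 38 muscle genes were well above background on Cre 1 to Cre 4. Over all probes the shares were 47.5%, 52.0%, 56.8% and 49.9%. Myh1, Mb and Ttn were well above background on Cre 3 only. The muscle stem cell and myoblast factors Pax7, Myod1 and Myog were not well above background on any array. Pgam2, the muscle form of phosphoglycerate mutase, was in another list and read -1.11, -1.82, 0.61 and -1.77.

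**Figure D5:**
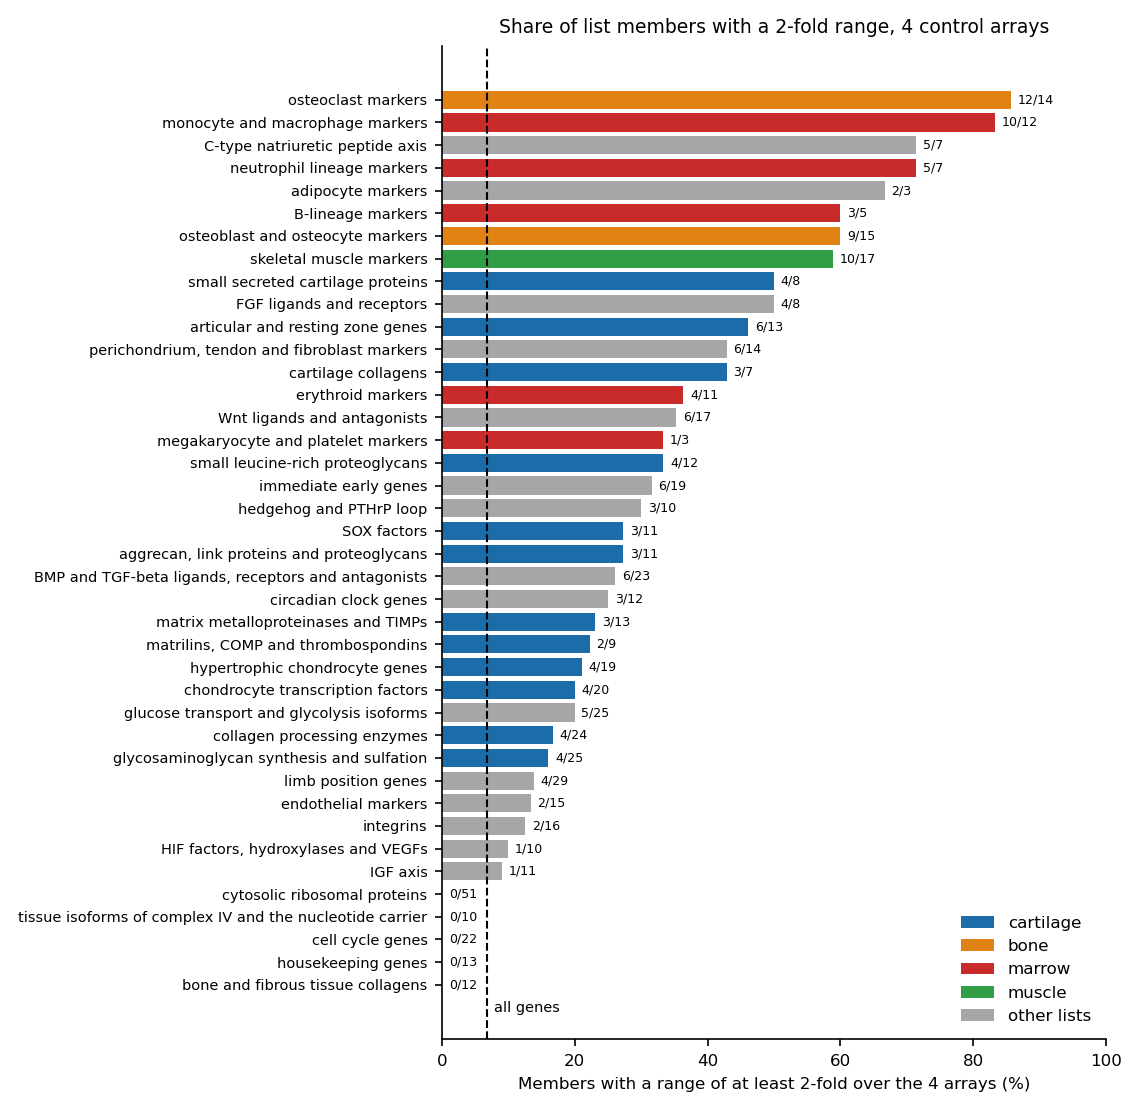
Share of the kept genes that had a range of at least 2-fold over the 4 arrays (bars, from 0, with the counts beside them) in each of the 40 lists with more than 1 kept gene, with the dashed line at 6.75% for all genes. Osteoclast and macrophage lists have the tallest bars, and 5 of these lists, ribosomal proteins and cell cycle genes among them, are at 0.

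Tissues around the plate differed too. All 15 endothelial genes were lowest on Cre 4, against 27% of all genes. A 2-fold range was reached by 2 of the 15, against 6.75% of all genes. The 15 included Emcn at 3.51, 3.63, 3.31 and 2.95 and Kdr, the VEGF receptor, at 2.78, 2.68, 2.65 and 2.04. Perichondrium and tendon genes were lowest on Cre 2 in 10 of 14, against 18.9% of all genes. Tnmd, tenomodulin of tendon, measured 2.06, 1.13, 1.33 and 2.25, and Tnxb, tenascin X, measured -0.26, -1.95, -0.36 and 0.10. Postn, periostin, was the brightest of that list at 5.33 ± 0.28. Adipocyte genes were few: Fabp4 measured 3.41, 2.62, 3.82 and 2.27, and Car3 measured 3.67, 3.38, 3.19 and 1.57. Adipoq was not well above background on Cre 4.

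Limb position genes had a median percentile of 33.4, and 4 of 29 kept genes had a 2-fold range (13.8%, against 6.75% of all genes). Pitx1, a factor of the hindlimb, measured 3.42, 3.24, 3.21 and 3.83, and Hoxa10, Hoxa11 and Hoxc10, which pattern the proximal and middle limb, had means of 3.10 ± 0.07, 0.97 ± 0.08 and 0.06 ± 0.19. Hoxd13 of the digits was not well above background on any array. Tbx4 of the hindlimb was at 0.17 ± 0.39 and Tbx5, named for the forelimb, at -0.70 ± 0.35.

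In metabolism the glycolytic isoforms Ldha (8.07, 8.44, 7.94 and 8.49) and Pgk1 (7.48, 7.90, 7.47 and 8.22) gave the highest signals, with overlapping probes. The lactate exporter Slc16a3 measured 4.395, 5.30, 4.59 and 5.60, Aldoc measured 2.98, 3.999, 3.26 and 4.24, and the glucose transporter Slc2a1 measured 2.34, 3.01, 2.58 and 3.44. These 5 were higher on Cre 2 and Cre 4 than on Cre 1 and Cre 3. They do not stand for the list of 25 kept genes, whose score was -0.12, 0.03, -0.05 and 0.13. Of the 25, 16 were highest on Cre 4, against 38.8% of all genes. In the same list 5 were lowest on Cre 2 and 4 on Cre 4, against 18.9% and 27% of all genes. The ordering of the 5 named genes was shared by Plod2 but not by Vegfa (1.65, 2.15, 2.14 and 2.09), both also targets of the hypoxia factor HIF1. Hif1a itself was at 3.74 ± 0.33 and Epas1 at 4.32 ± 0.18. Hif3a was high on 1 array, at 1.61 on Cre 1 and -2.08, -2.16 and -1.34 on the others. In complex IV the liver-type and general isoforms Cox6a1 (8.14 ± 0.13), Cox8a (7.04 ± 0.09) and Cox4i1 (6.48 ± 0.09) led, and Slc25a4, the nucleotide carrier of heart and muscle, was above Slc25a5, at 6.68 ± 0.07 and 4.01 ± 0.20. Itga10, the collagen receptor chain of chondrocytes, was the brightest integrin at 5.33 ± 0.23, within its spread of Itgb1 at 5.05 ± 0.13.

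Cell cycle genes were even over the arrays. Mki67 measured 4.06, 4.06, 4.06 and 3.77, and Top2a measured 2.62, 2.63, 2.66 and 2.26. The list was lowest on Cre 4 in 17 of 22 genes, against 27% of all genes. None of the 22 had a 2-fold range, against 6.75% of all genes. The 51 kept ribosomal protein genes likewise had no 2-fold range. Of them, 50 were highest on Cre 4 and 43 lowest on Cre 3, against 38.8% and 33.9% of all genes. Rps18 was at 9.06, 9.08, 8.95 and 9.22, and the widest range of the 51 was 0.49 log2 units. Of the housekeeping genes, Ppia (8.91 ± 0.03) and Ywhaz (3.72 ± 0.06) varied least, and 0 of 13 had a 2-fold range. The steadiest genes of all were Vta1, at 2.80, 2.82, 2.81 and 2.81, and Pip4p1, at 2.32, 2.32, 2.31 and 2.32.

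Immediate early genes, which respond to stimuli within minutes, were lowest on Cre 1 in 13 of 19 and highest on Cre 3 in 16 of 19. The shares of all genes were 20.2% and 15.6%. Fos measured 1.495, 2.64, 2.84 and 2.58, Egr1 measured 0.73, 2.10, 2.55 and 1.98, and Dusp1 measured 1.12, 1.77, 2.43 and 1.67. The circadian genes Per1 and Nr1d1 had a different order: Per1 measured 3.49, 2.52, 2.47 and 4.23, and Nr1d1 measured -0.64, -1.48, -1.33 and -0.30. Both were high on Cre 1 and Cre 4 and low on Cre 2 and Cre 3. Of the 12 kept circadian genes, 9 were highest on Cre 4 and 8 lowest on Cre 2, against 38.8% and 18.9% of all genes. Not all were high on Cre 1, where 2 of the 12 were lowest, against 20.2% of all genes. The time of death was not given in the sources used here.

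A few further genes of wide range belonged to none of these lists. Pisd-ps3, a pseudogene copy of a mitochondrial lipid enzyme, measured 2.63, 2.93, 3.07 and 5.48. Gdpd2, a phosphodiesterase of osteoblasts, measured -0.19, 0.10, -0.04 and -2.80, and Plac8 measured 1.08, 0.97, 1.74 and -1.29. The first was high on Cre 4 alone and the other 2 low there.

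Of the 880 genes with a 2-fold range, 449 (51%) had their lowest value on Cre 4 and 246 (28%) their highest on Cre 3. Without Cre 4, 289 genes had that range, 249 of them among the 880. Where such a gene had a second usable probe (133 genes), that probe was highest on the same array in 82 (61.7%) and lowest on the same array in 95 (71.4%), and it had a 2-fold range of its own in 63 (47.4%).

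The arrays sat in 2 rows of the slide, Cre 1 and Cre 2 in the first and Cre 3 and Cre 4 in the second. With limma and Benjamini-Hochberg adjustment, 0 of 20458 features, which include those without a symbol, differed between the rows, the lowest adjusted p being 0.405, and 640 features (3.13%) had an unadjusted p under 0.05. With a trended and robust variance, limma called 1 gene, Klra1, whose mean was 0.96 in the first row and 3.22 in the second (adjusted p = 0.0271). Pthlh, lower in the first row at -1.74 than in the second at -0.80, had an adjusted p of 1. With 2 arrays a row, a row and the animals in it cannot be told apart.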

How the data were processed

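Total RNA of growth plate cartilage from 4 Cre mice was labelled with Cy3 and read on 1-colour 8-array slides. Per the file headers, the authors' scanner output was made with Feature Extraction 11.5.1.1 and holds a processed signal intensity for each of 59305 non-control spots. The submitters' processing notes also name GeneSpring 14.9. The authors' deposited value table holds log2 values that matched log2 of the processed signal minus a constant of each array close to its log2 75th percentile (column medians -3.02, -3.00, -2.95 and -3.01); it served as an alternative, and its 4 columns of other samples were not used.

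Outlier spots were left out, spots of a probe were averaged, and log2 intensity minus the array's 75th percentile (144 to 187 scanner units) was computed for 56605 probes, of which 32994 had 1 symbol, 0 several and 23611 none through their accession. Probes well above background on all 4 arrays numbered 25847, and 23279 were so on none. The brightest probe stood for a gene. The number of arrays limits the precision. A range of 2-fold is a difference of 1 between the highest and lowest log2 values, described without a test. Slide rows were compared with limma 3.58.1 (R 4.3.3), which was tested on simulated data with large shifts only. That test does not show how well smaller differences between rows would be found. The rest used Python 3.11.15, numpy 2.4.6 and pandas 2.3.3. Of the members of 4 lists, 5 of 7 cartilage collagens, 8 of 16 osteoclast, 16 of 17 neutrophil and 30 of 38 muscle genes had a promoter in the RefSeq table.

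Members and lists were chosen with earlier results of these data known. Of the genes named with a level, 164 were drawn from the 5 markers, the 25 highest signals and the 20 most and 10 least variable genes. They were also drawn from the 6 highest signals and the 3 largest SDs in each list. Not every gene in these groups was named. A further 26 of the 190 genes with a level were named after their values were seen: Adgre1, Alas2, Bgn, Casq1, Dcstamp, Dmp1, Dusp1, Hoxc10, Igf1, Igf1r, Klra1, Nfatc1, Ocstamp, Panx3, Phex, Plod2, Ptch1, Runx2, Slc26a2, Slc2a1, Tbx4, Tbx5, Tnmd, Top2a, Vcan and Ywhaz. Alternatives were other scalings, background correction, filters, probe averages and the omission of each array.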

Additional observations from a re-analysis of the deposited data

Results flagged for a closer look

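With 4 arrays, a value was taken as standing apart where its gap to the nearest other array was above the 95% critical value of Dixon's test as a share of the whole range, which chance gives in about 1 in 20 groups. Of 40 list scores, 5 stood apart, all on Cre 4: the matrilin and COMP list at 0.4482, the small secreted cartilage proteins at 0.5084 and the C-type natriuretic peptide axis at 0.4682 were high, and the osteoclast markers at -0.9084 and the endothelial markers at -0.4461 were low.

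Of 190 named genes, 19 (10%) stood apart, against 810 of 13029 genes (6.22%). Many of the 190 were named for their spread over these same arrays. The 2 shares are therefore not an independent comparison, and no excess is read from them. Low on Cre 4 were the osteoclast and macrophage genes Acp5 at 8.16, Ctsk at 6.61, Itgb3 at 2.31, Dcstamp at 0.80, Ocstamp at 1.40, Csf1r at 4.41 and Cd68 at 2.58. The same array was low for Mmp13 at 4.57 and Gdpd2 at -2.80, which bone cells express, for the endothelial receptor Kdr at 2.04, and for the proliferation genes Mki67 at 3.77 and Top2a at 2.26. It was high for Thbs3 at 6.67, Igf1r at 2.14, Hoxa10 at 3.21 and Pisd-ps3 at 5.48. On other arrays, Elane stood high on Cre 3 at 0.63, Vegfa low on Cre 1 at 1.65 and Vta1, among the steadiest genes, high on Cre 2 at 2.82.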

How the results depend on the processing

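No paired analysis was possible because only 1 genotype is described. The alternatives were scaling on the array median, quantile normalization, normexp correction with it, the authors' value table, a filter of at least 2 arrays above background, no filter, the mean of a gene's probes, outlier spots kept, an SD limit in place of the 2-fold range, and each array left out. Of 3378 values recomputed, 3183 stayed the same by the rule for their kind and 195 moved further. The rule was a change within the SD between arrays for scores and percentiles, and within 1.5 times for counts. For the median SD of a list it was a change within the SD of its members' SDs, and for a leading gene no change. A score could change sign and still count as the same. The neutrophil score on Cre 2 did so, at -0.33 with all arrays and 0.27 without Cre 3. The other scalings used the same calls above background, so the 13029 kept genes could not change under them. The count of values that stayed the same is therefore not a measure of robustness. The kept genes numbered 22911 with no filter and 13029 to 14203 otherwise, and 13034 to 13391 with an array left out. The 880 genes with a 2-fold range became 277 after normexp (270 of them shared), 1498 with the looser filter, 7292 with no filter, and 289 to 732 with an array left out. With no filter the percentile was 99.9564 for Col2a1, 99.8080 for Acan, 99.5068 for Col10a1 and 94.8802 for Sox9, since more dim genes lie below; with the mean of a gene's probes it was 99.9463 for Col2a1, 99.3783 for Col10a1 and 84.1968 for Sox9. With an array left out these markers and Ihh stayed between 99.9168 and 99.9328 (Col2a1), 99.6295 and 99.6938 (Acan), 99.1050 and 99.2010 (Col10a1), 89.8004 and 92.1963 (Sox9) and 92.5677 and 95.0638 (Ihh).

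Genes with a 2-fold range numbered 0 of the cartilage collagens after quantile normalization and 0 after normexp, and 0 to 3 with an array left out. They numbered 2 to 9 of the osteoblast, 1 to 12 of the osteoclast, 5 to 9 of the neutrophil, 0 to 10 of the macrophage and 4 to 11 of the muscle genes with an array left out. The macrophage count was 5 after normexp. With the looser filter the neutrophil and muscle counts were 12 and 16, and with no filter 14 and 28. The scores of these 6 lists kept their highest and lowest arrays under all 8 other settings on the 4 arrays. Keeping outlier spots and taking the authors' value table could hardly alter a score, and the filters did not alter that of the cartilage collagens. The slide row test with limma called 1 feature without Cre 2, 1 with a trended and robust variance, and 0 in every other setting run. Signal over background limits the dim genes, whose spread was larger; marrow and muscle genes that were at background on 1 array are not among those kept.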
